A study of Mus musculus with 3 samples.

Results

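The transcript models of 10 mouse genes of the early spliceosome were described in T cells before and after activation: Luc7l, Luc7l2, Luc7l3, Rbm39, Rbm5, Rbm25, Srrm1, Srrm2, U2af1 and Snrnp70. All models assigned to these genes were taken, 150 of the 34238 models in 3 long-read libraries, 53 in naive cells, 51 in undivided cells and 46 in cells with 2 divisions. The genes were chosen by their place in early splicing and, in part, by the terminal exon lengths of Luc7l and Rbm39, which differed widely between libraries, so those lengths are given as a description. CD4+ T cells came from spleens and lymph nodes of wild-type male C57BL/6N mice aged 6 to 10 weeks and were isolated as naive cells with a kit. The naive library was made from unstimulated cells, and the paper describes the unstimulated naive cells of its division experiment as also labelled with CellTrace Violet. The other libraries came from labelled cells activated with anti-CD3 and anti-CD28 for 48 h. These were sorted by dye dilution into undivided cells and cells with 2 divisions. Each condition was 1 library with no replicate, which allowed no test, and a difference below is one between libraries. The deposited models list exons without read counts. A model was therefore listed or not listed, its abundance is unknown, and a model that is missing may have been too rare to be sequenced. A label placed the naive library on another sequencing cell than both activated libraries, so activation and sequencing cell cannot be told apart.

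An intron is first recognised at its 5′ splice site by the U1 particle, to which the protein encoded by Snrnp70 belongs, and at its 3′ splice site by the U2AF dimer, whose small subunit, encoded by U2af1, contacts the terminal AG. LUC7-like proteins associate with U1 and take part in 5′ splice site choice, Rbm39 encodes a U2AF-related splicing factor, and Srrm1 and Srrm2 encode SR-related proteins of the spliceosome. Genes of splicing factors often carry conserved alternative exons with in-frame stop codons, and mRNAs that include them are known substrates of nonsense-mediated decay.

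The naive library held 10527 models at 5592 loci, the undivided library 12602 at 5904 and the 2-division library 11109 at 5501. Among 3 markers of activated T cells (Il2ra, Tnfrsf4 and Tfrc), all 3 had models in both activated libraries and none in the naive library. Of 6 CD4 T cell genes, 6 had models in naive cells, 5 in undivided cells and 5 in 2-division cells, and Cd4 itself had 4, 5 and 4 models. Of 6 B cell genes, 5 had models in naive cells, 2 in undivided cells and 2 in 2-division cells, with 20, 6 and 5 models in all. Cd79a had no model in any library, and Ms4a1 had 2 models in the naive library and none in the others. The part of B cell RNA in the results on these genes was not tested.

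Each 3′ end was described by 2 sequence features, of which an end can have either, both or neither. The first was a poly(A) signal, AATAAA or ATTAAA, in the 50 nt before the end. The last 30 nt of 6 sites with a signal are shown because they are the alternative ends of Luc7l, Luc7l2 and Rbm39. Capitals mark the signal, and positions are on GRCm38 with Luc7l and Luc7l2 on the plus strand and Rbm39 on the minus strand. They lie at chr17:26281939-26281968, chr17:26285478-26285507, chr17:26280690-26280719, chr6:38603846-38603875, chr2:156147942-156147971 and chr2:156147246-156147275, in the order printed.
Luc7l proximal: ggaacaAATAAAtctggcggctgcctcctg
Luc7l distal: gtgagccaAATAAAccttccctcagttgct
Luc7l intron 9: ATTAAAattctttgctttttatttactttt
Luc7l2 intron 9: gtcctttcATTAAAagcattgtttagcttt
Rbm39 proximal: gttaccttgaaaAATAAAaatgttaacagg
Rbm39 distal: actcaAATAAAattctctgaaaaaggccac

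The second feature was A-rich genome sequence after the end, defined as at least 12 A in the next 20 nt. Such a stretch can bind an oligo(dT) primer inside an RNA, and an end there cannot be told apart from a polyadenylated end with these data. The 7 sites below are shown because they were the A-rich early ends listed in all 3 libraries. Each line gives the last 10 nt of the model in lower case and the next 20 nt of the genome in capitals. On GRCm38 they lie at chr2:156178539-156178568 (minus strand), chr12:83674390-83674419 (plus), chr12:83668470-83668499 (plus), chr4:135322456-135322485 (minus), chr4:135340957-135340986 (minus), chr7:45381331-45381360 (minus) and chr9:107746051-107746080 (minus), in the order printed.
Rbm39 intron 2: agaaattggcAAAAAAGAGGAAAAAAAACC
Rbm25 exon 15: gaatccgaggAAGAAGAAGAAGAAAAGCAA
Rbm25 exon 12: aaggaggcagAAAGAGAAGAAGAAAGAAGA
Srrm1 exon 17: aggaggtgggAAGAAAAAGAAGAAGAAGAA
Srrm1 exon 7: ccgtctccagAAAAAAATTCCAAAAAGGAA
Snrnp70 intron 7: cctcccctatAAAAACACACAGAAAAACAA
Rbm5 exon 18: tgccttccacAAAAGAGGGAAAGGAGAAGA

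An early end was a 3′ end upstream of the stop codon of the gene's reference coding transcript, and a full-length end lay at or beyond that stop. Early ends made up 25 of 53 member models in the naive library (47.2%, 95% Clopper-Pearson interval 33.3% to 61.4%), 27 of 51 in the undivided library (52.9%, 38.5% to 67.1%) and 23 of 46 in the 2-division library (50%, 34.9% to 65.1%). The intervals overlapped widely between libraries. They cover counting error only, and models of one gene are not independent. Over all protein-coding genes with a reference transcript, 15.6%, 11.1% and 11.4% of models ended early in the same libraries, below the member intervals in each. By gene, 7 of 8 members with a model had an early end in naive cells, against 20% of all genes with a model. The counts were 9 of 10 members in undivided cells, against 14.5%, and 8 of 9 in 2-division cells, against 14.6%. Members with both kinds of end numbered 7 of 8 in the naive library (12.3% of all genes), 8 of 10 in the undivided library (9.76%) and 7 of 9 in the 2-division library (9.79%). Members had more models than other genes, with a median of 5 in naive cells, 4.5 in undivided cells and 4 in 2-division cells against 1, 2 and 1 over all genes, so the counts by gene are not on equal terms. Rbm25 and Srrm1, picked out after their values were seen, carried 34 of the 75 early ends, and without them 41 of 111 models ended early (36.9%).

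**Figure D1:**
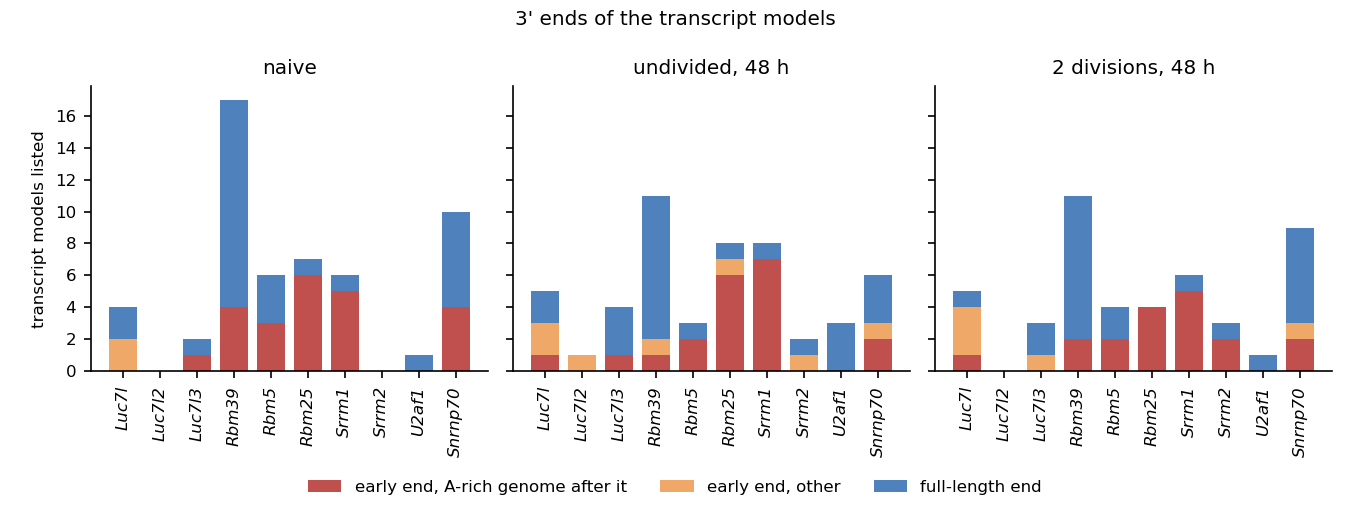
Number of transcript models with an early end and with a full-length end for each member gene, in naive cells, undivided cells and cells with 2 divisions (1 library each, so there is no error bar). Rbm25 and Srrm1 had mostly early ends, and U2af1 had none.

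The early ends lay in coding exons in 49 of the 150 models (32.7%, against 5.53% over all genes) and in introns in 26 (17.3%, against 6.83%). Without Rbm25 and Srrm1 this order turned, with 17 of 111 models ending early in coding exons (15.3%) and 24 in introns (21.6%). Of the 75 early ends, 61 were A-rich (81.3%, interval 70.7% to 89.4%), and of the 75 full-length ends 1 was (1.33%). Early ends of all genes were A-rich at a similar share, 77.1%, and full-length ends at 14%. A poly(A) signal preceded 15 of the 75 early ends (20%, against 17.1% of early ends of all genes) and 69 of the 75 full-length ends (92%, against 75.2%). The early ends of the members were thus close to those of other genes in both features and made up a larger share of models. The 15 early ends with a signal were those in intron 9 of Luc7l and Luc7l2 (8) and those in exon 15 of Rbm25 (7). Ends within 24 nt of each other made 29 early clusters, of which 8 were seen in all 3 libraries. In 7 of those 8 every end was A-rich, and the remaining one was the signal-bearing end in intron 9 of Luc7l. Of the early ends, 47 of 75 lay within 24 nt of an annotated transcript end (62.7%, against 30.2% over all genes). The members' full-length ends were also above all genes in this, at 98.7% against 70.5%.

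**Figure D2:**
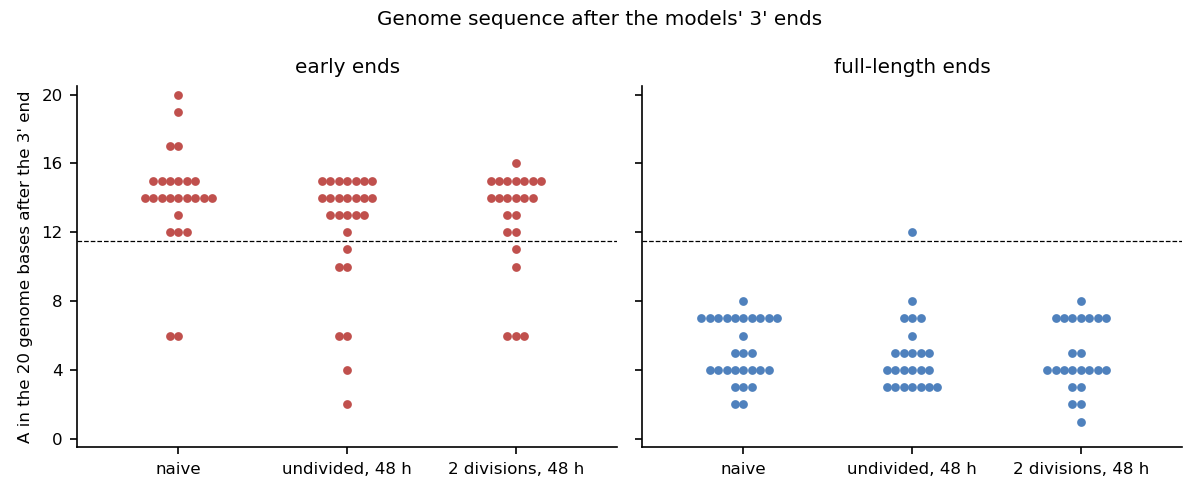
Number of A bases in the 20 nt of genome after each 3′ end of the member models, by library. Early and full-length ends are in separate panels. A dashed line lies just below 12, the number from which an end was called A-rich. Early ends had a median of 14 A and full-length ends a median of 4.

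Luc7l, whose product is a homolog of the yeast U1 protein Luc7, lies on the plus strand of chromosome 17 with 10 exons and 371 codons in its reference transcript. It had 4 models in naive cells, 5 in undivided cells and 5 in 2-division cells. Its last exon ran to the distal end in both naive models that reached it, with lengths of 3883 and 3885 nt. In undivided cells both such models stopped at the proximal end, with last exons of 344 and 360 nt. In 2-division cells the single such model ran to the distal end with a last exon of 3879 nt. The proximal and distal ends lay 3531 nt apart, each had its own AATAAA, and no library listed both. The undivided library therefore stood apart from the other two, which differed by 5 nt. These values chose the gene, and 5 models carry them.

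**Figure D3:**
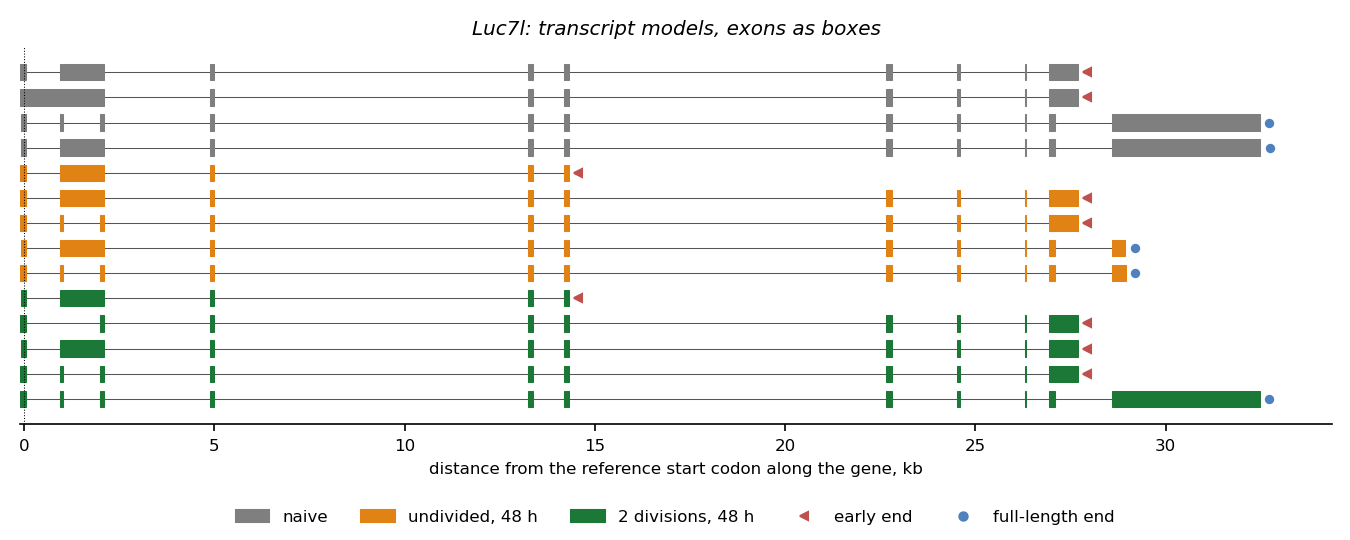
Exons of the 14 Luc7l models by library, drawn against distance from the reference start codon along the gene. Undivided cells listed the proximal end of the last exon, and naive cells and cells with 2 divisions listed the distal end. The end in intron 9 was listed in each library.

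The commonest Luc7l end was neither of these. Exon 9 ran on into intron 9 and ended there in 2 naive models, 2 undivided models and 3 models with 2 divisions. Those ends lay 590 to 593 nt past exon 9 with an ATTAAA before the end and 6 A in the 20 nt after it, at the annotated end of the coding transcript Luc7l-201, which has 325 codons. The one model of Luc7l2, a paralog, was listed in undivided cells and ended in the same intron of its own gene, 407 nt past exon 9, again after an ATTAAA. The reference transcripts of the paralogs shared exon lengths at 6 of 10 exons. Luc7l also had an A-rich end in exon 5 in 1 undivided model and 1 model with 2 divisions.

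In most Luc7l models the frame from the reference start codon closed early. In 13 of the 14 models the first in-frame stop was premature, that is more than 50 nt before the last exon junction. An exon of 1152 nt, which joins an alternative 71-nt exon to exon 2 and is annotated as a retained intron form, was included in 2 naive models, 3 undivided models and 2 models with 2 divisions, and its stop came after 69 codons. The spliced 71-nt exon was included in 1, 2 and 2 models, and shifted the frame onto a stop in exon 3 after 79 codons. The remaining naive model retained the whole first part of this region and met a stop after 70 codons. The one model without a premature stop was the 2-division model that skipped the 71-nt exon and ended at the 325-codon stop. No Luc7l model in any library reached the reference stop codon in frame.

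The stops that alternative exons brought into frame are shown for 5 members because they set the coding outcome of most premature-stop models. Capitals mark the stop codon read in frame from the reference start codon. On GRCm38 they lie at chr17:26254108-26254134 (plus strand), chr17:26257924-26257950 (plus), chr2:156178869-156178895 (minus), chr7:45383147-45383173 (minus), chr17:31651672-31651698 (minus) and chr9:107756937-107756963 (minus), in the order printed.
Luc7l extended exon: actttaaaagtgTAGtttagaaagaaa
Luc7l exon 3: agcgcatggattTAGgagaatgtacca
Rbm39 73-nt exon: aactgtcaatcaTAAggtagtaattga
Snrnp70 intron 7 exon: ctggcttgcagcTGAtgcttacgctcc
U2af1 both exons: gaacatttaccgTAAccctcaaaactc
Rbm5 exon 7: tgcaatgcattaTAGcaatcccagacc

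Luc7l3, a longer paralog on the minus strand of chromosome 11, had 2 models in naive cells, 4 in undivided cells and 3 in 2-division cells. Its full-length ends lay within 94291138 to 94291141 in 1, 3 and 2 models. Models whose last intron ended just before position 94291578 (1, 2 and 1) had a last exon of 438 to 441 nt. Each library also listed 1 model that ended in exon 8 before any stop codon, after 268 codons in naive cells, 247 in undivided cells and 262 in 2-division cells, with 11 to 14 A behind the end. The full-length models with the start codon (1, 1 and 2) all ended their frame at a 432-codon stop. The reference last exon is 1894 nt long and holds sequence that these shorter forms splice out. In undivided cells 1 model, a single exon of 1638 nt, lay wholly inside it and was counted as retaining an intron. In 2-division cells 1 model of 3452 nt, with a terminal exon of 2139 nt, ran through it and also retained the 105-nt intron 10. Both shared the one full-length end with the other full-length models.

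Rbm39, on the minus strand of chromosome 2 with 17 exons, had the most models of the members, 17 in naive cells, 11 in undivided cells and 11 in 2-division cells. Its last exon averaged 783.9 nt over 13 naive models, 634.7 nt over 9 undivided models and 790.9 nt over 9 models with 2 divisions, and lengths spanned 250 to 946 nt, 250 to 946 nt and 250 to 947 nt. The difference came from the mix of 2 ends that all libraries listed, 694 nt apart. The distal end had 10 models in naive cells, 5 in undivided cells and 7 in 2-division cells, and the proximal end had 3, 4 and 2. In undivided minus naive cells the mean difference was -149.3 nt and the difference of medians -9.0 nt. In cells with 2 divisions minus undivided cells they were 156.2 nt and 11.0 nt. With 9 to 13 models a library, the difference of means thus rests on a few listed models at the proximal end, and most of it was gone with medians.

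**Figure D4:**
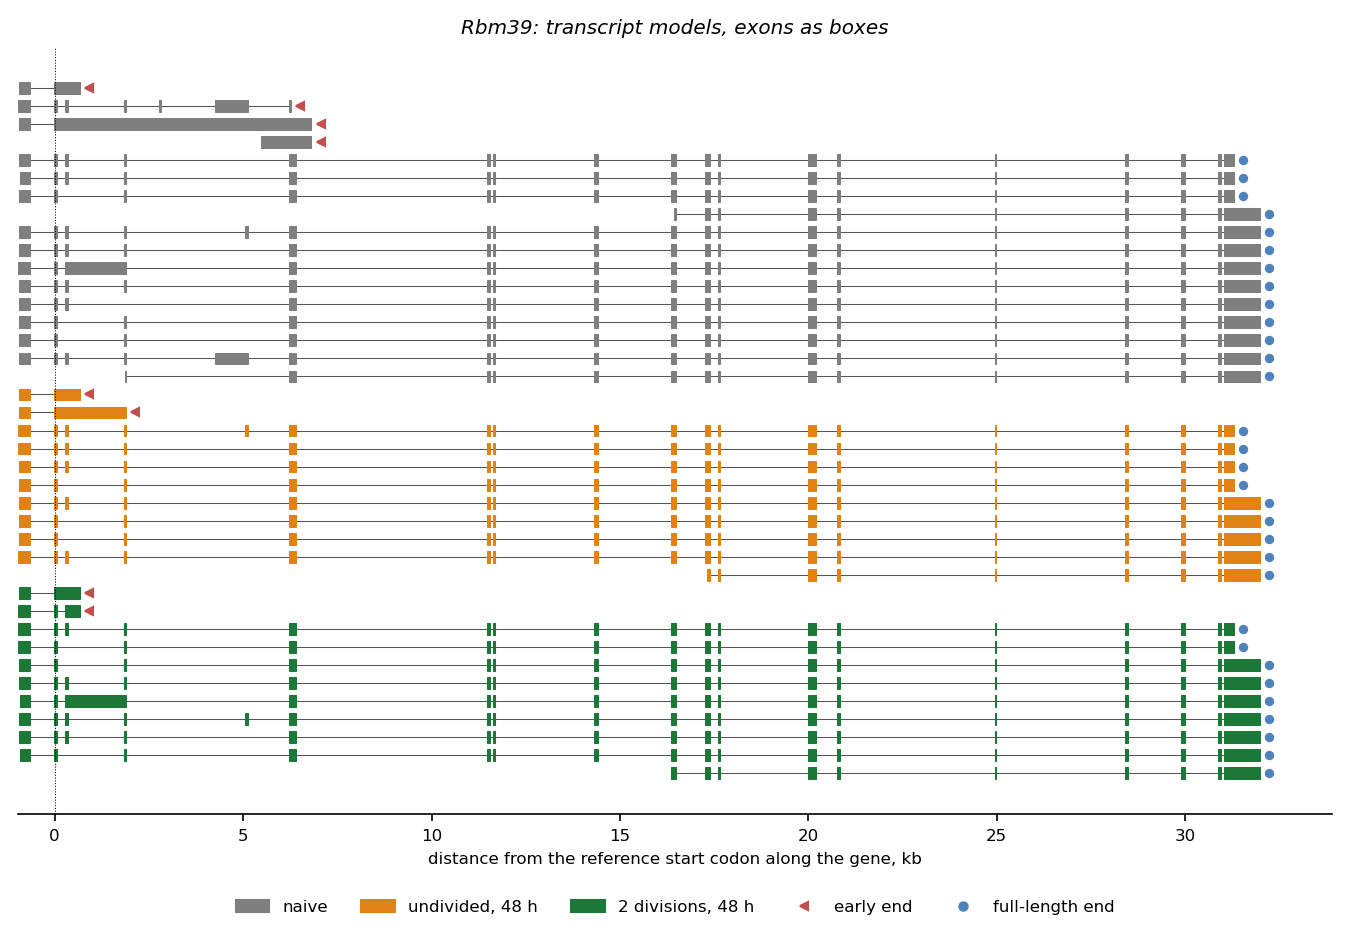
Exons of the 39 Rbm39 models by library, drawn against distance from the reference start codon along the gene. The proximal and the distal end of the last exon were each listed in all 3 libraries.

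The coding outcome of Rbm39 turned on a 73-nt exon of its second intron. It was included in 8 naive models, 5 undivided models and 4 models with 2 divisions and skipped in 3, 3 and 3. Inclusion brought the TAA printed above into frame after 40 codons. Skipping models read through to the reference stop, with 524 or 530 codons, in 3 models of each library. Those full-coding models had the distal end in 2 models and the proximal end in 1 model in each library alike, and premature-stop models had the distal end in 6, 2 and 4 and the proximal end in 2, 3 and 1. Both ends were thus listed with both coding outcomes. The 1494-nt intron after this exon was retained in 2 naive models, 1 undivided model and 1 model with 2 divisions and spliced in 7, 5 and 4.

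Rbm39 also ended early in its introns. An end in intron 2 with 15 A behind it was listed in 1 naive model, 1 undivided model and 2 models with 2 divisions. Another in intron 4, with 19 to 20 A behind it, had 2 naive models and no model of activated cells. Naive cells alone listed an unannotated exon of 878 nt in 2 models, which begins further upstream than an annotated 72-nt exon included in 1 model of each library. Both forms listed by naive cells alone thus had 2 models each, in the library with the most Rbm39 models. A 224-nt intron before the 73-nt exon was retained in 2 naive models, 2 undivided models and 1 model with 2 divisions, and spliced in 9, 5 and 6.

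Rbm5, an RNA-binding protein known in human cells for regulating the splicing of apoptosis genes, lies on the minus strand of chromosome 9 and had 6 models in naive cells, 3 in undivided cells and 4 in 2-division cells. Its full-length end, the only one of the members with no AATAAA or ATTAAA before it, was listed in 3, 1 and 2 models. An A-rich end in exon 18 was listed in 2, 1 and 2. Exon 6, of 74 nt, was included in 2 naive models, 3 undivided models and 2 models with 2 divisions, and skipped in 3, 0 and 2. Skipping put a TAG of exon 7 in frame after 150 codons. The undivided library thus listed no skipping model among its 3.

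Rbm25, a U1-associated regulator of 5′ splice site choice on the plus strand of chromosome 12, had 7 models in naive cells, 8 in undivided cells and 4 in 2-division cells. Of these 19 models 17 ended early. The most frequent end, in exon 15, lay just before a run of AAG repeats with 14 A in the next 20 nt, had an AATAAA 25 nt before it, and was listed in 2 naive models, 4 undivided models and 1 model with 2 divisions. The next, in exon 12, was listed in 2, 1 and 2. Both sites printed above run on in purine-only sequence for more than 10 bases. A full-length end was seen once in undivided cells, with a last exon of 414 nt, and once in naive cells, with 1623 nt, a difference of -1209.0 nt for undivided minus naive cells that rests on 1 model each. Both lacked the start codon, so that no Rbm25 model covered the whole coding sequence. An annotated 118-nt exon was included in 2 naive models only, and an unannotated 62-nt exon in 2 undivided models only. The 62-nt exon carried an in-frame stop after 293 codons in 1 of them, and the other did not hold the reference start codon.

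Srrm1, on the minus strand of chromosome 4, had 6 models in naive cells, 8 in undivided cells and 6 in 2-division cells, and 17 of the 20 ended early. Its full-length end was listed once in each library, with the same last exon of 964 nt. Ends in exon 17 were listed in 1 naive model, 5 undivided models and 3 models with 2 divisions, all A-rich, and ends in exon 7 in 3, 2 and 2. Intron 3, of 2065 nt, was retained in 2, 1 and 1 models and spliced in 3, 7 and 5, and its TGA came after 79 codons. A 42-nt exon, which keeps the frame, was included in 2 naive models, 3 undivided models and 4 models with 2 divisions, and was skipped in 3 undivided models and in no other.

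Srrm2 has the longest reference coding sequence of the members, with 2703 codons, and no model covered it. It had no model in naive cells, 2 in undivided cells and 3 in 2-division cells. A full-length end was listed in 1 undivided model and 1 model with 2 divisions, both without the start codon, and 3 further models were early ends in exon 5, intron 10 and exon 11. The member models had a median length of 2503 nt in the naive, 2005 nt in the undivided and 1982 nt in the 2-division library, with a longest model of 7126 nt.

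U2af1, the small U2AF subunit on the minus strand of chromosome 17, was the only member without an early end. All 5 models, 1 in naive cells, 3 in undivided cells and 1 in 2-division cells, ended within 31647082 to 31647087. Exon 3 of the gene exists in 2 versions of 67 nt each, of which the coding transcripts listed here hold one. Their 3′ splice sites are shown because the gene's own product reads this part of an intron. Each line gives the last 20 nt of the intron and the first 10 nt of the exon with the AG in capitals, on the minus strand of GRCm38 at chr17:31651703-31651732 and chr17:31652559-31652588.
U2af1 exon 3: tgttgcgttttgtatttcAGaccattgccc
U2af1 alternative exon 3: tttattttttttccccgcAGaccatcttga

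A U2af1 model with the reference exon 3 alone and the reference stop was listed in each library. One undivided model held both exons, which put a TAA in frame after 75 codons. Another undivided model retained the 3266-nt intron 2 and met a stop after 119 codons. Both premature-stop models of U2af1 were thus from undivided cells, and each was 1 model of unknown abundance.

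Snrnp70, on the minus strand of chromosome 7 with 10 exons and 448 codons, had 10 models in naive cells, 6 in undivided cells and 9 in 2-division cells. Its full-length end was listed in 6, 3 and 6 models. Its last exon averaged 821.3 nt in the naive, 633.8 nt in the undivided and 714.3 nt in the 2-division library. The lower means came from 1 early end in each activated library, which left a last exon of 82 nt with 10 A in the next 20 nt, and all other models with this last exon were within 817 to 825 nt. The difference of -107.0 nt for 2 divisions minus naive cells was the smallest of the members' differences past 100 nt, and the next smaller was 80.5 nt, also of Snrnp70.

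The variable part of Snrnp70 was its intron 7. An A-rich end in this intron was listed in 3 naive models, 2 undivided models and 2 models with 2 divisions. Exons that begin at the same base inside it were included at 1360 nt in 1, 1 and 2 models, at 85 nt in 1 naive model and at 60 nt in 1 naive model and 1 model with 2 divisions. They were skipped in 1, 3 and 4 models. A TGA after 166 codons was shared by all of these exons. An 80-nt exon further upstream was included in 1 model of each library and skipped in 8, 5 and 7. Models that reached the reference stop numbered 1 in naive cells, 2 in undivided cells and 3 in 2-division cells.

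Read from the reference start codon, which 131 of the 150 models held, 52 models had a premature stop (39.7%, interval 31.3% to 48.6%), against 17.2% over all genes. By library the counts were 22 of 47 in the naive library (46.8%, against 20.4% of all genes' models), 15 of 43 in the undivided library (34.9%, against 16.7%) and 15 of 41 in the 2-division library (36.6%, against 14.8%). The member intervals overlapped between libraries. Luc7l held 13 of the 52 premature-stop models and Rbm39 held 19, and the share without these genes is not given. Genes with such a model numbered 5 of 8 members in the naive library, 6 of 10 in the undivided library and 5 of 9 in the 2-division library, against 20.7%, 18.8% and 16.2% of all genes. Members with a model that met the reference stop numbered 5 of 8, 5 of 10 and 5 of 9, against 76.7%, 80.8% and 81.1% of all genes. By model it was met in 24 (18.3%, against 66.6% over all genes), and 29 models met the stop of some annotated coding transcript. A further 33 models had no stop before their end (25.2%, against 5.67%), and without Rbm25 and Srrm1 10 of 98 did (10.2%). For such models an early end nearly follows from the definitions, because an open frame does not meet the reference stop. All of the 33 were early ends, 29 of them A-rich, with frames of 186 to 840 codons. They came from 4 of 8 members in the naive library, 6 of 10 in the undivided library and 5 of 9 in the 2-division library, against 4.85%, 6.61% and 6.15% of all genes. Among premature-stop models whose whole intron chain was annotated, 11 matched transcripts of the nonsense-mediated decay type and 8 of the retained intron type. No share over all genes is given for these matches or for the 29 models at an annotated stop.

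**Figure D5:**
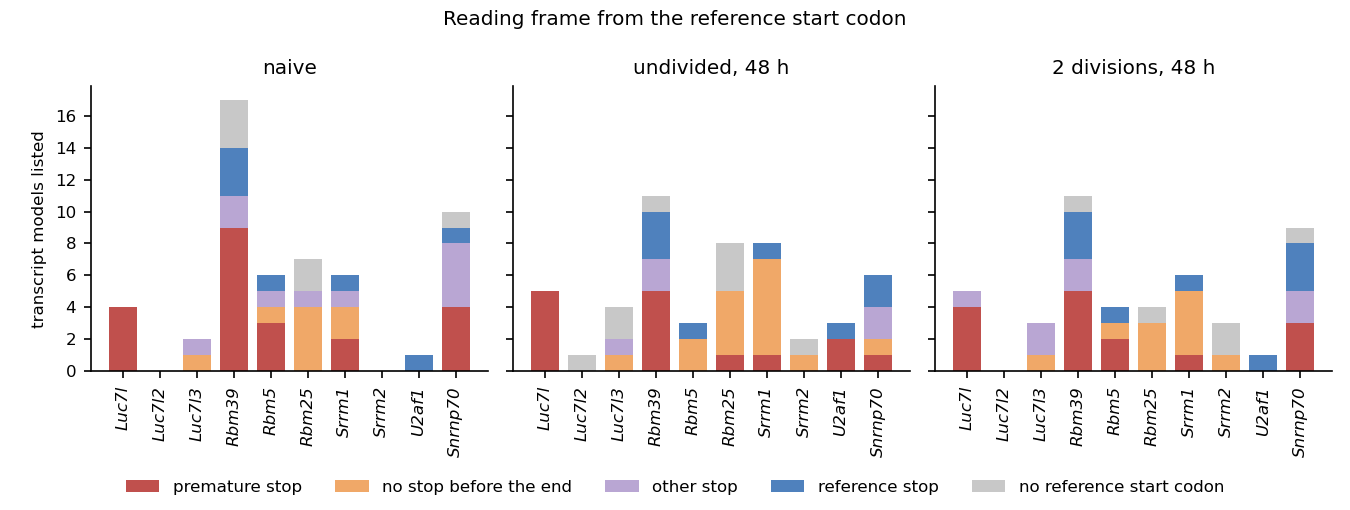
Number of models of each member gene by the outcome of the frame from the reference start codon, in naive cells, undivided cells and cells with 2 divisions. Premature stops were most frequent in Luc7l and Rbm39, and frames without a stop before the end in Rbm25 and Srrm1.

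Retained introns were about as frequent in the models of the members as elsewhere. They were seen in 14 of 53 models in the naive library (26.4%), 9 of 51 in the undivided library (17.6%) and 7 of 46 in the 2-division library (15.2%), against 24.2%, 17.5% and 16.4% over all genes. At the level of genes, 6 of 8, 6 of 10 and 5 of 9 members had one, against 28%, 22.4% and 21.2% of all genes, and members had more models each. The naive library had the highest share both in the members and over all genes.

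Models that begin their last exon at the same base form a terminal exon family, and a mean length difference of over 100 nt between libraries was called. For undivided minus naive cells 5 of 18 member families were called, all shorter, against 18.7% of all families (13.1% shorter and 5.7% longer). For 2 divisions minus naive cells it was 2 of 17, both shorter, against 18.5% (13.6% shorter and 4.82% longer). For 2 divisions minus undivided cells 3 of 19 were called, 1 shorter and 2 longer, against 15.3% (8.38% shorter and 6.93% longer). These comparisons share libraries, and the contrast was used to pick Luc7l and Rbm39, so the counts describe the choice. Besides those already given, a family of Rbm39 that ends in intron 2 or beyond averaged 3754.0 nt in the naive, 1291.0 nt in the undivided and 682.0 nt in the 2-division library, over 2, 2 and 1 models.

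Of 77 distinct intron chains of the members, 22 were listed in all 3 libraries (28.6%, against 22.8% over all genes), 10 in 2 and 45 in 1. Of those in 1 library, 20 were from naive cells, 16 from undivided cells and 9 from cells with 2 divisions. Over all genes, 8905 of 15515 chains were listed in 1 library. Of these, 2852 were from naive cells, 3391 from undivided cells and 2662 from cells with 2 divisions.

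A list of 41 other genes of the early spliceosome was set beside the members. Models were listed for 31 of them in naive cells, 36 in undivided cells and 37 in 2-division cells, and 10, 10 and 9 had an early end. Of all genes with a model, 20%, 14.5% and 14.6% had one in the same libraries. The list genes had a median of 2 models in each library, against 1, 2 and 1 over all genes. Early ends made up 93 of 324 models (28.7%), below the members and above all genes, and 78 of the 93 were A-rich. Sf3b1, which binds the branch site, had early ends in 8 of 11 naive models, 7 of 8 undivided models and 7 of 8 models with 2 divisions. U2surp, a U2-associated SR-related protein, had them in 4 of 6, 6 of 8 and 4 of 5. In Sf3b1 21 of the 22 early ends were A-rich, and in U2surp 12 of 14. Sf3b2, also of the U2 particle, had 2 early ends in each library and none A-rich. Rbm10, a relative of Rbm5, had early ends in 0 of 2 naive models, 3 of 7 undivided models and 3 of 4 models with 2 divisions, and Rbm6, another relative, in 0 of 2, 5 of 6 and 0 of 1. Of the terminal exon families of the list, 4 of 35 were called in undivided minus naive cells (11.4%), 4 of 34 in 2 divisions minus naive cells (11.8%) and 4 of 42 in 2 divisions minus undivided cells (9.52%), below the share over all families each time.

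The families of the list that were called lay in 6 genes. The helicase gene Ddx46 had a terminal exon of 1401.5 nt in the naive, 329.7 nt in the undivided and 222.5 nt in the 2-division library, over 2, 3 and 2 models, and 1, 0 and 2 early ends. Prpf39, a U1-associated factor, averaged 734.1, 909.4 and 734.3 nt over 7, 7 and 3 models. Undivided cells thus stood apart for Prpf39, and for Sf3b2 at 519.8 nt over 5 models against 411.5 nt over 4 models in naive cells. Htatsf1, a U2-associated factor, was longer in 2-division cells at 1076.0 nt over 2 models against 618.0 nt in naive cells, and Ddx42 and Dnajc8 were shorter in the same comparison, at -204.0 nt and -132.0 nt, with 1 naive model each.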

How the data were processed

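As given in the study's methods, PacBio subreads were turned into consensus reads (ccs), primers were taken off (lima), and poly(A)-tailed reads were clustered (isoseq3), mapped (pbmm2), collapsed and annotated (SQANTI3). The submitters' processing notes name minimap2 and Subread, and mm10 and GRCm38. The deposited values are the exon coordinates of transcript models, with no other unit and no read counts, so depth per model is unknown. Poly(A)-tailed reads can also start at A-rich sequence inside an RNA.

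Models were assigned to GENCODE M21 genes on GRCm38 by shared splice sites on the same strand. The study names a later release, so an exon called unannotated may be annotated there. The reference transcript was the basic protein-coding transcript with the longest coding sequence. A retained intron needed 10 nt of exon on each side. The members and gene lists were chosen with earlier results of these data known. The text names every member with each recurrent end, exon and intron it gives, and of the other list genes those with at least 2 early ends in a library or a terminal exon difference of over 100 nt, of which some are not reported here. Shares have exact Clopper-Pearson intervals at 95%. Code was tested on simulated data. Alternatives covered end merging, the terminal exon threshold and average, A-rich ends, the retained intron rule, exon definition and the premature stop distance. Calculations used Python 3.11.15, numpy 2.4.6, scipy 1.17.1 and matplotlib 3.10.9.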

Additional observations from a re-analysis of the deposited data

How the results depend on the processing

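Of 55 results recomputed under an alternative, 38 were counted as kept, by a rule of within 1.5 times or within the interval. Among the 38, the Rbm39 last exon difference for 2 divisions minus naive cells fell outside that rule. It went from 7.0 nt by means to 2.0 nt by medians. No length difference changed sign. Leaving out A-rich ends left 2, 7 and 5 early ends (naive, undivided, 2-division cells) in place of 25, 27 and 23. Counting only annotated introns of basic transcripts (the basic set of GENCODE) left 5, 3 and 2 models with a retained intron, in place of 14, 9 and 7. Alternative exons defined by the introns of the models alone were 15, 14 and 11, in place of 26, 28 and 23. For undivided minus naive cells, 3 families were called at over 200 nt and 3 by medians, in place of 5. For 2 divisions minus naive cells, 1 was called at over 200 nt, 1 by medians and 1 without A-rich ends, in place of 2. Leaving out Rbm25 and Srrm1 was added after seeing the data. With 1 library per condition, no replicate could be left out. No paired analysis was possible because no condition has replicates. Without read counts, a model that is not listed cannot be told apart from one too rare to be found.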
